A study of Mus musculus with 17 samples.

Results

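The deposited count table held, beside its gene rows, rows named by an Ensembl gene identifier followed by the word enh, here called enhancer rows. Of 11716 identifiers with such a row, 3932 had exactly 1. Of those 3932 rows, 1716 had 10 or more counts in at least 3 of the 17 libraries, and these 1716 enhancer rows, of 48361 enhancer rows of any kind, are described here. Each was set beside the gene row with the same identifier. The other 2216 rows did not reach the minimum, and 616 of them held no count in any library. At the edge of the rule, the 87 rows that reached 10 counts in exactly 3 libraries had a median mean count of 5.29 per library, and the 101 rows that reached it in 2 libraries had 4.47. The coordinates and lengths of the enhancer rows, and how each was tied to its gene, are not given in the labels or the table, so no position or sequence of an enhancer row is shown. Members are named below by the symbol of their gene identifier.

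RNA with a poly(A) tail was sequenced from mouse bone marrow cells sorted as cKit+ Lymph- Ery-, that is, with the cKit receptor of stem and progenitor cells and without lymphoid and erythroid surface markers. Mice carried a deletion of the URE, an upstream enhancer of the PU.1 gene Spi1, on 1 allele or none, and 2, 1 or 0 intact alleles of Tet2, a DNA demethylase. The disease label was Normal for 12 libraries, namely 3 each of Tet2 KO, Tet2 het, URE het and wild type (WT). It was acute myeloid leukaemia (AML) for 5, of which 2 were URE het Tet2 het and 3 were URE het Tet2 KO. The labels call the controls matched for age and give no age, sex, promoter of a Cre or number of mice. No compound mutant was Normal and no other genotype was AML, so disease state and compound genotype cannot be told apart. Nothing in the labels ties a library to a mouse of its own, so p-values measure the spread between libraries.

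Enhancers are stretches of DNA, often outside genes, that bind transcription factors and raise transcription of a gene on the same chromosome. Many active enhancers are themselves transcribed, mostly into short, unstable RNA without a poly(A) tail. RNA counted over an enhancer that lies inside or next to a gene can also come from that gene's own transcripts or from another gene nearby. PU.1 is a transcription factor of myeloid and B cells that binds promoters and enhancers of their genes.

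Promoters of 2 members whose rows moved together in AML against Normal are shown, Mt1 for a rise and H2-Aa for a fall of both its enhancer and its gene row. They are the 250 bases before the RefSeq gene start (build GRCm38.p6), printed 5′ to 3′ on the strand of the gene, and are not the enhancer rows. Capitals mark a match to the core of the metal response element in Mt1 (TGCACNC or TGCGCNC on either strand) and to the CCAAT box, on the opposite strand, in H2-Aa.
Mt1, chr8:94178839-94179088, plus strand: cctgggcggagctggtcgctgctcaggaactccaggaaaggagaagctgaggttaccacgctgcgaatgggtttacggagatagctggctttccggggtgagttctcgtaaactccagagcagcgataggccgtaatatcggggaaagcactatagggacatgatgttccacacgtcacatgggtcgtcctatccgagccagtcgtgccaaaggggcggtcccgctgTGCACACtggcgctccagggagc
H2-Aa, chr17:34287824-34288073, minus strand: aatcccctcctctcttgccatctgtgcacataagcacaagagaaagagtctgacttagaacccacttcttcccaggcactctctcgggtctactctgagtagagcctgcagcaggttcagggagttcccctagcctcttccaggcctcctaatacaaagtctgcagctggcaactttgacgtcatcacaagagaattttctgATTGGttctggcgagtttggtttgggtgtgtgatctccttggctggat
The printed Mt1 match starts 23 bases before the gene start and the H2-Aa match 48 bases before it. Counted to 50 bases past the start, Mt1 held 3 such matches and H2-Aa 1. In windows of 300 bases (250 before to 50 after the start), the metal response core was found in 28.2% of 27025 promoters and in 35.7% of the 1337 promoters matched to members, and CCAAT in 41.1% and 42.6%. The letters GAGGAAGT, a PU.1 motif, on either strand, were found in 3.69% of all promoters and in 42 of 1337 member promoters (3.14%). They were in 1 of 41 promoters of members higher in AML, in 0 of 7 of those lower, and in 1 of 23 of those with a called ratio. A match says only that these letters are in the window.

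Gene rows held 21.1 to 38.3 M counts per library, and the 1716 enhancer rows together came to 0.222% to 0.585% of that. Both replicates of URE het Tet2 het had the highest shares, 0.372% in replicate 1 and 0.585% in replicate 2. Normal libraries ran from 0.222% to 0.363%. Counted as the median over members, there were 3.18 to 7.53 enhancer-row counts per 100 gene-row counts in a library, and replicate 2 of URE het Tet2 het again had the highest value. The number in the library titles also moved with the rows: with genotype held, 197 members were higher and 108 lower in titles 8 to 17 than in titles 1 to 7 (edgeR, adjusted p under 0.05), 17.8% of members against 21.9% of all rows. The labels do not call this number a batch. All 30 genes of the stem cell list, Kit among them, passed the count rule, with 10 lower and 1 higher in AML and a sum of 730 to 1150 CPM against 857 to 1956 CPM. For comparison, 3.60% of all gene rows were lower and 5.42% higher in AML (edgeR, adjusted p under 0.05). Summed over its list, expression of mast cell, basophil and eosinophil genes was 238 to 388 CPM in AML libraries and 408 to 873 CPM in Normal ones. Of 19 tested, 7 were lower and 1 higher, and 1 gene of the list, the mast cell tryptase Tpsb2, was at 0 throughout. For monocyte and dendritic cell genes the sum was 2603 to 7074 CPM against 5197 to 15394 CPM (7 lower, 2 higher of 31), and for granulocyte genes 22254 to 50790 CPM against 37794 to 106156 CPM (5 lower, 4 higher of 31). The sum for B lymphoid genes was 674 to 1633 CPM against 1165 to 2370 CPM, with 11 genes lower and 1 higher of 26. For stromal and endothelial genes it was 136 to 4100 CPM against 120 to 228 CPM (2 lower, 4 higher of 12 tested). Of 14 megakaryocyte genes tested 5 were lower and 0 higher, of 20 T and NK cell genes 3 and 1, and of 24 erythroid genes 2 and 0. In such bulk samples fewer cells of a type and less RNA per cell cannot be told apart.

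**Figure D1:**
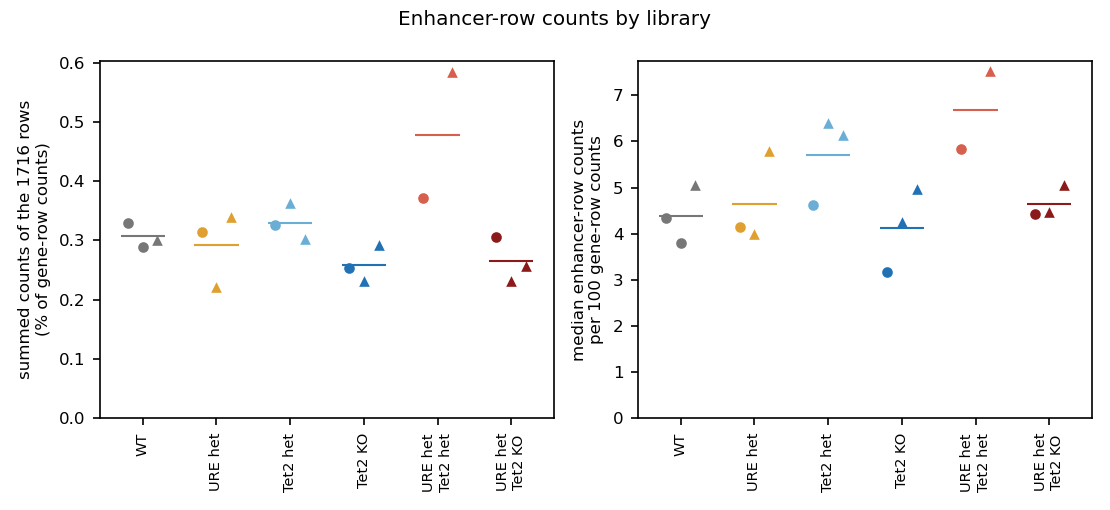
Each point is 1 library and each line the mean of a genotype, with circles for title numbers 1 to 7 and triangles for 8 to 17. The left axis is the summed count of the 1716 enhancer rows as a percentage of gene-row counts (0.222% to 0.585%), and the right axis is the median over members of enhancer-row counts per 100 gene-row counts (3.18 to 7.53), with URE het Tet2 het replicate 2 highest in both.

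Most members belonged to protein-coding genes. Of the 1704 members with a symbol in the annotation, 1614 (94.7%) were protein coding, 30 were miRNA genes and 28 antisense genes. Their genes were short, with a median span of 17.7 kb against 40.4 kb for the 5204 genes with several enhancer rows of which at least 1 passed the count rule. Gene rows stood in order of chromosomal start (99.7%). Of the 1707 members with a gene row, 895 (52.4%) stood directly after it and 391 (22.9%) stood before it. For rows of genes with several, 16.5% stood directly after. Genes of the 18 lists of blood lineages and pathways used here mostly had several enhancer rows (258 of 424, 60.8%, against 33.6% of protein-coding gene rows and 43.7% of those that passed the count rule), and 68 (16.04%) had exactly 1. Of the 425 list genes, 36 had a row among the 1716. Neither Spi1 nor Tet2 did.

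Counts were low. A member had a median mean count of 29.4 per library (quartiles 13.2 and 65.1) and a median level of 0.901 CPM (counts scaled to the size of the library's gene rows, with TMM factors), and 920 of the 1716 were under 1 CPM. Some 726 reached 10 counts in all 17 libraries. Per 100 counts of its gene row, a member's own row held a median of 7.15 counts (quartiles 2.74 and 31.1), and 266 members (15.6%) held more counts than their gene. These are counts and not levels per length, since the lengths of the enhancer rows are not known here.

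The highest levels were those of B2m, Sfpq, S100a11, Mcpt8 and Ncf4. B2m encodes the light chain of MHC class I, Sfpq a nuclear splicing factor, S100a11 a calcium-binding protein, Mcpt8 a basophil granule protease and Ncf4 a subunit of the phagocyte NADPH oxidase. The B2m row averaged 37.7 CPM, Sfpq 35.4 CPM, S100a11 25.98 CPM, Mcpt8 23.2 CPM and Ncf4 23.2 CPM over the 17 libraries. The S100a11 row ran from 11.6 to 25.9 CPM in AML and from 11.7 to 57.5 CPM in Normal libraries, and did not pass the test (adjusted p = 0.269, edgeR). Sfpq and Ncf4 differed by 0.11 ± 0.19 and 0.05 ± 0.41 on the log2 scale between AML and Normal, both within their standard errors (adjusted p = 0.807 and 0.965, edgeR). The ± after a log2 fold change is an approximate standard error, taken as the absolute change divided by the root of its F statistic.

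Across the 17 libraries an enhancer row and its gene row tended to move together. Over 1559 members whose gene row also passed the count rule, Pearson's r of log2(CPM + 0.5) had a median of 0.31 (quartiles 0.03 and 0.57), was above 0 for 1199 (76.9%) and above 0.7 for 205. The points share library, depth and genotype, so r is a description. For rows of genes with several the median was 0.33. Among members at 1 CPM or more the 3 highest were F7, coagulation factor VII (0.99), Mettl23, a methyltransferase (0.98), and H60b, a ligand of an NK cell receptor (0.97). The 3 lowest were Taf1b, a subunit of the RNA polymerase I selectivity factor (-0.79), Sin3b, a corepressor scaffold (-0.69), and Prr14 (-0.68). The Mettl23 row ran from 3.82 to 29.9 CPM in Normal and from 5.67 to 42.0 CPM in AML libraries, with its 3 Tet2 het libraries close together at 26.6 ± 2.99 CPM (SD, n = 3). Mettl23 overlaps Jmjd6 and Srsf2, so its counts are less certain. The H60b row was at 0.486 CPM in replicate 1 of URE het Tet2 het. Of the URE het Tet2 KO libraries, replicate 2 had 0.172 CPM and replicate 1 had 4.73 CPM, above all 12 Normal libraries (2.0 to 4.59 CPM).

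In AML against Normal, the mean of both compound genotypes was set against the mean of the 4 others. Of the 1716 members 67 passed (edgeR, adjusted p under 0.05), 58 higher and 9 lower in AML, or 3.90% (3.38% and 0.524%). The same test called 6.56% of all 40587 rows (4.10% higher, 2.46% lower), 9.02% of gene rows (5.42% higher, 3.60% lower), 4.40% of enhancer rows of genes with several and 3.92% of those without an identifier. The share among members was thus below that of all rows, and the split leaned to higher. Of the 1716, 157 reached 10 counts in under 3 Normal libraries and so owed their place to AML libraries, among them 18 of the 58 higher, 10 of which reached it in no Normal library. Of the 9 lower, 3 reached it in no AML library. Such members had to be high in that group to be tested. Rises of over 2-fold were seen in 48 of the 58, over 4-fold in 27 and over 16-fold in 4, and falls of over 2-fold in 7 of the 9. Without a threshold the median log2 fold change of the 1716 was 0.25 (1161 above 0), against 0.05 for their own gene rows, 0.005 for all rows and -0.05 for rows of genes with several. Without URE het Tet2 het replicate 2, in which the share was highest, the median was 0.04. In 11 members (0.641%) all 5 AML libraries lay above or below all 12 Normal libraries, against 0.904% of all rows, and 10 of the 11 also passed the test.

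The count of calls depended on single libraries. Leaving out URE het Tet2 het replicate 1 left 20 calls, and leaving out URE het Tet2 KO replicate 2 or 3 left 30 or 33. Without URE het replicate 2, or without Tet2 het replicate 2, there were 44. Leaving out URE het Tet2 KO replicate 1 gave 116, and URE het Tet2 het replicate 2 gave 112, of which 33 were lower. With a term for the title range there were 135 calls, DESeq2 called 133, and limma voom with quality weights called 58 (44 higher, 14 lower).

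**Figure D2:**
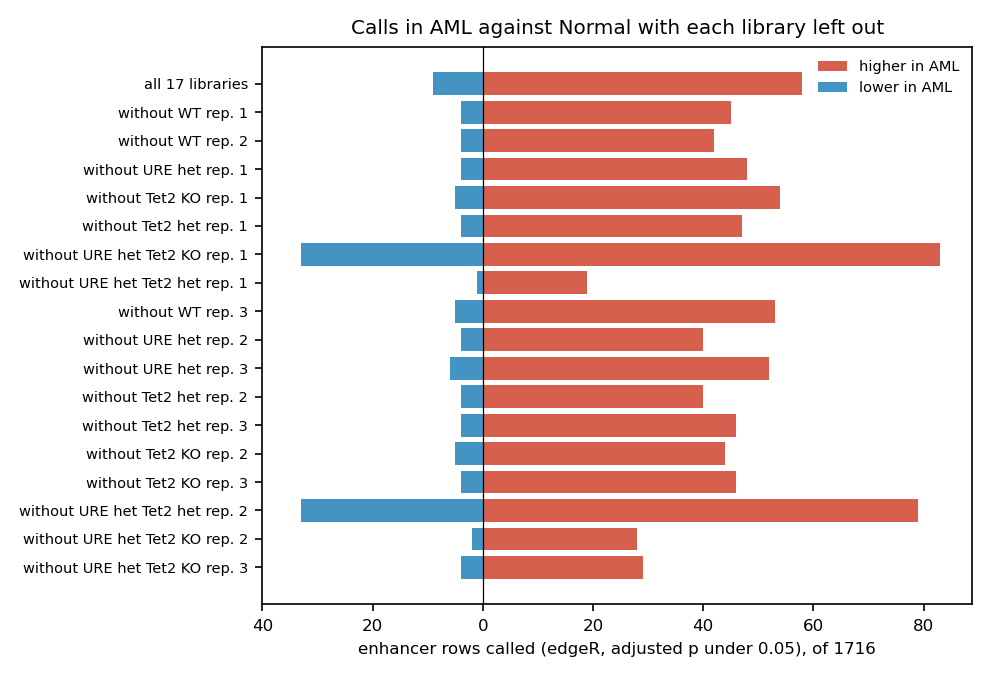
Bars count the enhancer rows of the 1716 that edgeR called higher (right) or lower (left) in AML with all 17 libraries and with each library left out in turn. The total runs from 20 without URE het Tet2 het replicate 1 to 116 without URE het Tet2 KO replicate 1, against 67 with all libraries.

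Among the 1559 pairs, 124 gene rows passed (78 higher, 46 lower), or 7.95% against 9.02% of all gene rows, and 59 enhancer rows. Both rows passed in 25 pairs, in the same direction in all 25 (22 higher, 3 lower). The enhancer row alone passed in 34 and the gene row alone in 99, and over all pairs 66.6% had the same sign. Of the 67 called members, 23 (34.3%) had a flanking gene whose row was called in the same direction, against 192 (11.2%) of all members. A flanking gene was the next gene row passing the count rule on either side, at any distance.

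**Figure D3:**
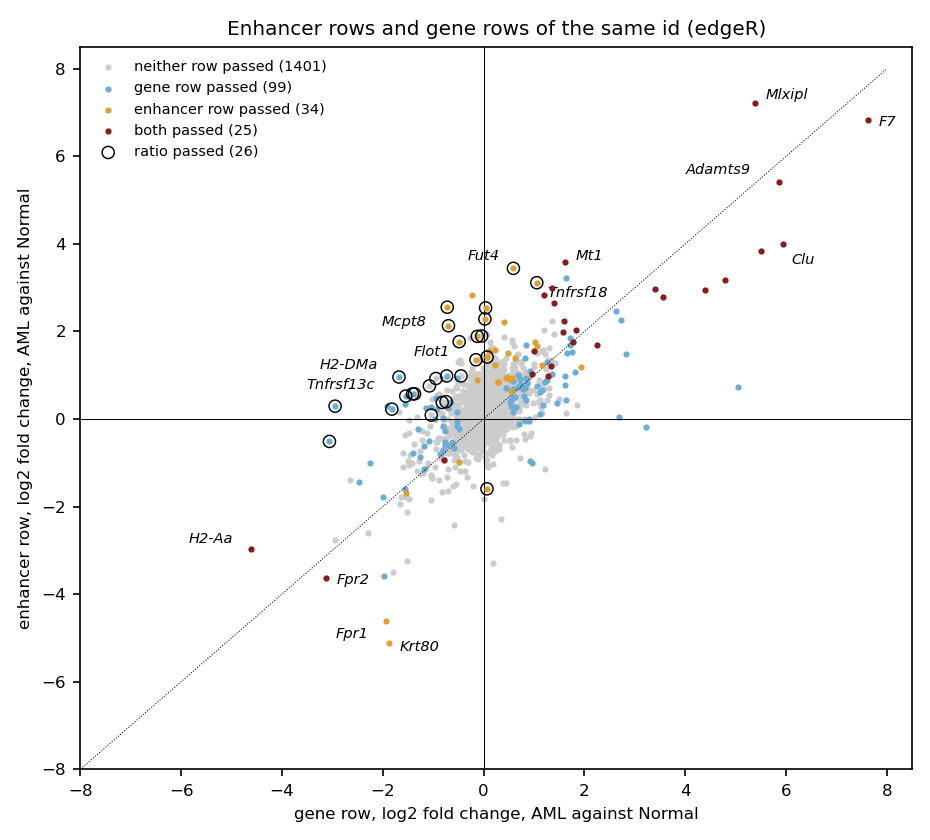
Each of the 1559 points is a member, with the log2 fold change of its gene row in AML against Normal on the x axis and of its enhancer row on the y axis. Colours show which row passed (25 both, 34 the enhancer row alone, 99 the gene row alone), open circles mark the 26 members whose enhancer to gene ratio passed, and the dotted line marks equal change.

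Several rises shared by both rows were in genes with low levels in the Normal libraries. F7, the liver-made clotting protease of the extrinsic pathway, had an enhancer row at 44.3 and 0.668 CPM in replicates 1 and 2 of URE het Tet2 het. In URE het Tet2 KO it stood at 0.123, 19.7 and 29.2 CPM in replicates 1 to 3, and in the 12 Normal libraries at 0 to 0.873 CPM. Its 3 high libraries were thus 3 of the 5 AML libraries, and the other two lay within the Normal range. The gene row followed in the same libraries (129, 0.689, 0.575, 68.9 and 68.3 CPM). The enhancer row was higher in AML by 6.83 ± 0.93 on the log2 scale (adjusted p = 0.000817) and the gene row by 7.62 ± 0.87 (adjusted p = 0.000454, edgeR), with no change of their ratio past the threshold (-0.20 ± 0.53, adjusted p = 0.958). The neighbouring gene Mcf2l, 5.13 kb away, was also higher (2.29, adjusted p = 0.000606). F7 lies at chr8:13026034-13035809 (GRCm38) and was named for its r.

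Clu (chr14:65968483-65981547), which encodes the secreted chaperone clusterin, had an enhancer row of 4.02 and 0.585 CPM in URE het Tet2 het and of 2.38, 4.59 and 1.21 CPM in URE het Tet2 KO. All 5 lay above the 12 Normal libraries (0 to 0.307 CPM, median 0.162). The rise was 4.01 ± 0.58 for the enhancer row (adjusted p = 0.00109) and 5.93 ± 0.52 for the gene row (adjusted p = 6.1e-05, edgeR). The rows of Clu, Adamts9, Mlxipl, Fst and Prkaa2 met the count rule through AML libraries alone, and that of Astn2 only with them. Adamts9, a secreted matrix protease, rose by 5.42 ± 1.01 and its gene row by 5.87 ± 0.82. Its row was at 1.91, 0.516 and 0.755 CPM in the 3 libraries that were high for F7 (the 3 in which members of a stretch of chromosome 2 were low, as given with B2m below, whose part here was not tested), at 0.0209 and 0.0411 CPM in the other AML libraries, and at 0 in 9 of 12 Normal ones. Mlxipl, the glucose-sensing factor ChREBP, held 159 counts over the AML libraries and 2 over the Normal ones, a ratio of 169 per library size (95% exact counting interval 46.1 to 1411, which covers counting error only and not the spread between libraries). The same 3 libraries held the Mlxipl row at 1.88, 1.46 and 1.42 CPM, and the other two at 0.0627 and 0 CPM. Fst, the activin-binding protein follistatin, rose by 3.83 ± 0.92, with a gene row 5.50 ± 0.76 higher, and Astn2 and Prkaa2, the latter a catalytic subunit of AMP-activated kinase, rose by 3.17 ± 0.73 and 2.80 ± 0.74. Clu kept its call in each alternative that could test it, which titles 1 to 7 alone could not. Adamts9, Fst, Astn2 and Prkaa2 each lost theirs in titles 8 to 17 alone and on leaving out replicate 1 of URE het Tet2 het. Mlxipl lost its call in DESeq2 and without that library. With that library left out, Adamts9 was at 2.78, Fst at 2.88, Astn2 at 0.09, Prkaa2 at 2.04 and Mlxipl at 5.29 (adjusted p from 0.12 for Mlxipl to 1 for Astn2, edgeR). Leaving out replicate 2 of URE het Tet2 KO also ended the calls of Fst (3.70) and Prkaa2 (2.69), and replicate 3 those of Astn2 (2.68) and Prkaa2 (2.49). The Adamts9 and Astn2 genes overlap other transcripts that were also higher in AML (Gm15737 by 7.08, Gm11484 by 3.05), and strand was not stated, so their counts cannot be told apart. Clu, Adamts9, Mlxipl, Fst, Astn2 and Prkaa2 were named after their values were seen.

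Metallothionein 1 (Mt1), which binds zinc, copper and cadmium, had an enhancer row of 2.14 and 5.95 CPM in URE het Tet2 het and of 1.40, 4.19 and 17.9 CPM in URE het Tet2 KO. Normal libraries had 0 to 1.60 CPM (median 0.460), so only URE het Tet2 KO replicate 1 fell inside their range. The rise was 3.59 ± 0.60 (adjusted p = 0.00267) and that of the gene row 1.61 ± 0.24 (adjusted p = 0.00117, edgeR). Their ratio was 1.86 ± 0.53 higher and did not pass (adjusted p = 0.0819). Mt2, whose gene lies 5.51 kb away, rose by 4.27 (adjusted p = 0.000283). Crat, carnitine acetyltransferase, rose by 1.54 ± 0.27 with its gene row (0.99 ± 0.25), and Il17rb, a receptor for IL-25 and IL-17B, by 1.70 ± 0.34 with its gene row (2.26 ± 0.37). The Il17rb row was at 3.02 and 4.22 CPM in URE het Tet2 het, at 1.44, 3.82 and 5.44 CPM in URE het Tet2 KO and at 0.496 to 2.31 CPM in Normal libraries. Leaving out replicate 1 of URE het Tet2 het ended the call of Crat (1.13, adjusted p = 0.0594, edgeR). Ces2g, a carboxylesterase, rose by 2.95 ± 0.70 with a gene row 4.40 higher, at 3.17 to 576 CPM in AML and 3.87 to 12.96 CPM in Normal libraries. The Ces2g enhancer-row call was lost on leaving out replicate 1 of URE het Tet2 het (0.53) or replicate 2 of URE het Tet2 KO (2.63). Il17rb overlaps Actr8 and Crat overlaps Dolpp1 in the annotation, so their counts are less certain, as are those of Mt1 beside its close relative Mt2. Mt1, Crat, Ces2g and Il17rb were named after their values were seen.

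The remaining called rises ran from 0.65 (Borcs8) to 3.66 (Elovl3). The Elovl3 row was at 0 to 6.24 CPM in AML (median 0.575) and 0 to 0.335 CPM in Normal libraries. Among those without overlap between AML and Normal libraries were Tmem220 (2.82), Lrrc23 (2.84) and Il17b (1.46), at low mean levels of 0.348, 0.145 and 0.758 CPM. In 8 called members the gene row did not pass the count rule or was lacking, Il17b and Elovl3 among them. These were named after their values were seen.

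The falls were fewer. H2-Aa (chr17:34282744-34287823), the alpha chain of the MHC class II molecule that presents peptides to helper T cells, had no enhancer-row count in 3 of 5 AML libraries. It had 0.0411 CPM in replicate 1 of URE het Tet2 KO and 2.90 CPM in replicate 2 of URE het Tet2 het. The 12 Normal libraries had 0.443 to 3.19 CPM (median 1.04). One AML library thus lay near the top of the Normal range and the other 4 below all of it. The gene row showed the same order, at 0 to 0.370 CPM in those 4, at 10.6 CPM in the other AML library and at 6.34 to 89.4 CPM in Normal. H2-Aa fell by 2.97 on the log2 scale (SE 0.85, adjusted p = 0.0458), and its gene row by 4.61 (SE 0.89, adjusted p = 0.00631, edgeR). The flanking class II genes H2-Ab1 and H2-Eb1 had gene rows lower too (-3.04 and -3.37). The call was near the threshold and was lost in 15 of 27 alternatives (largest adjusted p = 0.124), among them without replicate 2 or 3 of URE het Tet2 KO (-2.71 and -2.72), while without URE het Tet2 het replicate 2 the change was -7.21 (adjusted p = 0.00015).

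B2m was lower in both rows, with 11.3 to 29.1 CPM in AML and 25.3 to 65.5 CPM in Normal libraries in the enhancer row. The change was -0.94 ± 0.27 (adjusted p = 0.0438), and -0.78 ± 0.22 in the gene row (adjusted p = 0.0434, edgeR), and the enhancer-row call was lost in 14 of 27 alternatives. B2m (chr2:122147686-122153083) lies on chromosome 2 between 60 and 160 Mb, a stretch already seen in earlier results of these data, where 60 members sit with a median change of -0.53. Relative to Normal, the median over those 60 was 49.6% in replicate 1 of URE het Tet2 het, and 36.0% and 39.3% in replicates 2 and 3 of URE het Tet2 KO. It was 134% and 82.2% in the other AML libraries and 60.02% to 133% in single Normal libraries. B2m was the only one of the 60 that passed, and 66 of the 67 calls lay elsewhere. The part of this stretch in the fall of B2m was not tested.

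Fpr1 and Fpr2, neighbouring formyl peptide receptors of phagocytes, had enhancer rows at 0 to 0.575 CPM and 0 to 0.167 CPM in AML libraries. In Normal libraries the Fpr1 row had 0.0867 to 6.63 CPM and the Fpr2 row 0.144 to 1.54 CPM. Fpr2 fell in both rows (-3.63 ± 0.77, adjusted p = 0.0105, and -3.12 ± 0.84 for the gene row, edgeR). The Fpr1 row passed at -4.62 ± 1.30 (adjusted p = 0.0457, edgeR), a call lost in 16 of 27 alternatives, and its gene row did not pass (-1.94 ± 0.66, adjusted p = 0.0916, edgeR). Both genes belong to a family of related genes, and whether reads were split among them was not tested. The monocyte and granulocyte sums were lower in AML too, as given above, and their part here was not tested. Capns2, a small calpain subunit whose gene lies inside Lpcat2, had 0.211 to 2.75 CPM in AML and 2.80 to 6.28 CPM in Normal libraries without overlap, and changed by -1.69 ± 0.49 (adjusted p = 0.0478, edgeR, lost in 15 of 27 alternatives). Shcbp1, a protein that binds the adaptor Shc1, fell by 0.99 (SE 0.28, adjusted p = 0.0424, edgeR). Krt80, a keratin, held 1 count over the AML libraries and 101 over the Normal ones, 47.4 times more per library size in Normal (95% exact counting interval 8.31 to 1890, for counting error only). The rows of Krt80, Fpr2 and Adam6a met the count rule through Normal libraries alone. Without replicate 1 of URE het Tet2 het the Fpr2 row was at -3.20 (adjusted p = 0.0611), Krt80 at -4.81 (adjusted p = 0.103) and Capns2 at -1.47 (adjusted p = 0.222, edgeR), none of them called. The other lower members were Hyls1, described with the ratios, and Adam6a (-5.10 ± 1.35), whose gene row did not pass the count rule. The gene rows flanking Adam6a were immunoglobulin heavy chain segments far from it. Ighv11-2, 502 kb away, was lower (-4.85, adjusted p = 0.0254, edgeR). Ighv3-1, 418 kb away, did not pass (-2.87, adjusted p = 0.226, edgeR). Fpr1, Fpr2, Shcbp1, Krt80 and Adam6a were named after their values were seen.

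**Figure D4:**
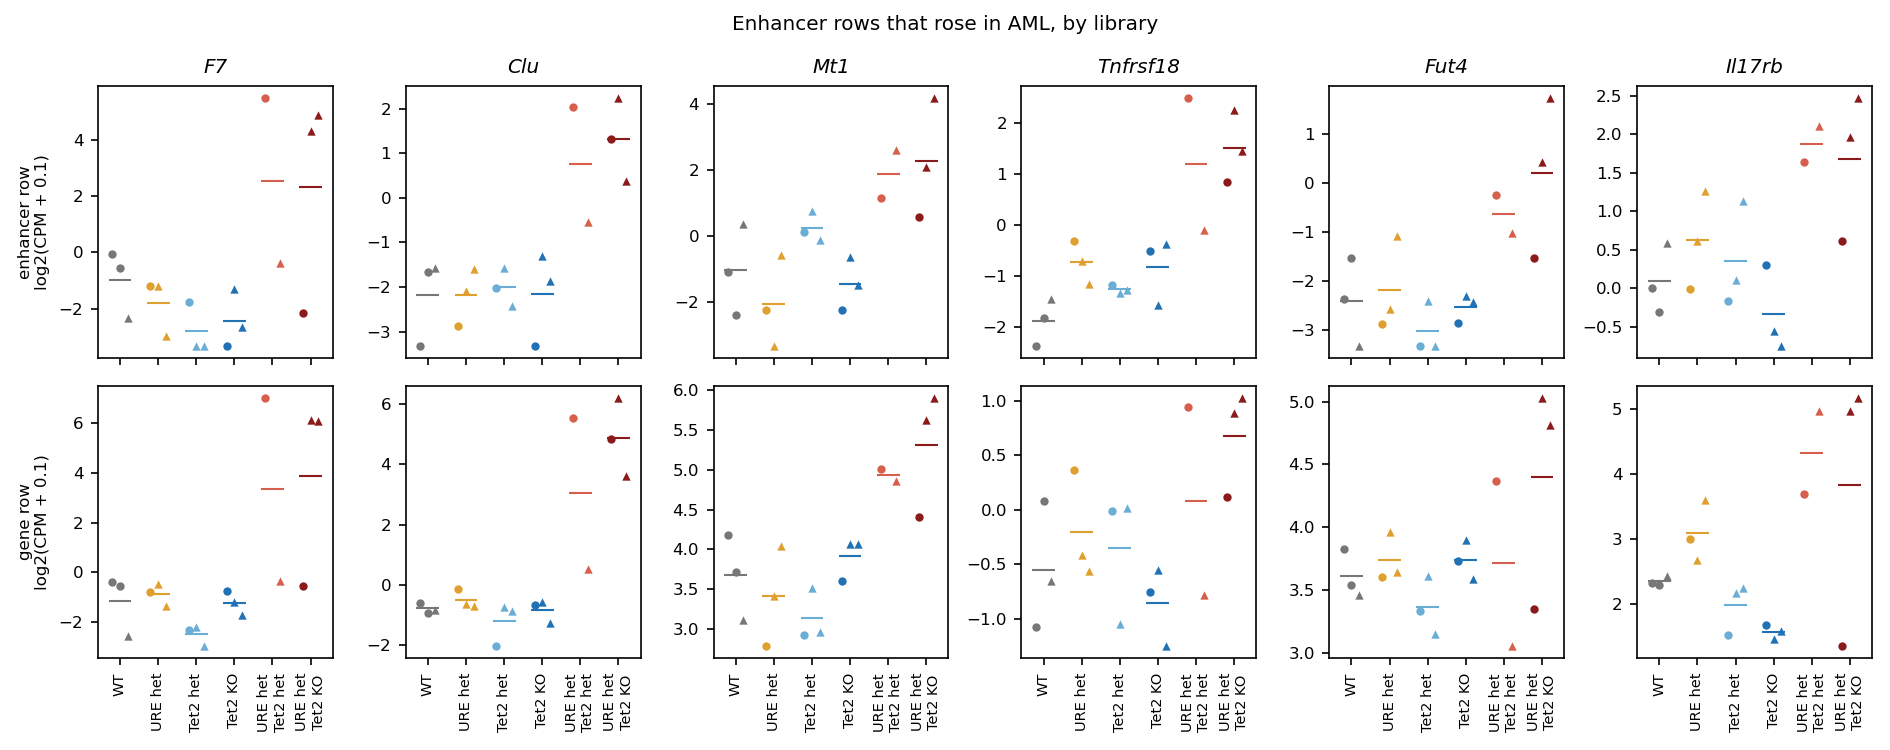
Points give log2(CPM + 0.1) of the enhancer row (top) and gene row (bottom) of 6 members in each of 17 libraries by genotype, with lines for genotype means, circles for title numbers 1 to 7 and triangles for 8 to 17. F7 is high in 3 of the 5 AML libraries in both rows, while all 5 AML libraries lie above all Normal ones in the enhancer rows of Clu and Tnfrsf18.

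Some enhancer rows rose while their gene rows did not pass. Flot1 (chr17:35823230-35832791) encodes flotillin-1, a scaffold protein of membrane rafts. Its enhancer row was at 6.19 and 4.91 CPM in URE het Tet2 het and at 4.23, 6.77 and 10.3 CPM in URE het Tet2 KO, all above the 12 Normal libraries (0.962 to 3.76 CPM, median 2.62). It rose by 1.35 ± 0.25 (adjusted p = 0.00473), and its gene row differed by -0.15 ± 0.34 (adjusted p = 0.853, edgeR), with 16.9 to 49.4 CPM in AML and 15.5 to 57.9 CPM in Normal libraries. The ratio of both rows was higher by 1.57 ± 0.31 (adjusted p = 0.00525, edgeR). Without replicate 1 of URE het Tet2 het the Flot1 ratio was at 1.5 and missed the threshold (adjusted p = 0.0615, edgeR). Limma on the log2 ratio did not call Flot1 either. In titles 1 to 7 alone its enhancer row was higher by 0.76 and in titles 8 to 17 alone by 1.63. Tubb5, 1.13 kb away, was lower (-0.62, adjusted p = 0.0127, edgeR).

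Tnfrsf18, the T cell costimulatory receptor GITR, had an enhancer row of 5.48 and 0.835 CPM in URE het Tet2 het, and of 1.68, 4.65 and 2.63 CPM in URE het Tet2 KO. Normal libraries had 0.0935 to 0.705 CPM, without overlap. The rise was 3.11 ± 0.39 (adjusted p = 0.000514) against 1.05 ± 0.37 in the gene row (adjusted p = 0.0969), and the ratio was higher by 1.90 ± 0.35 (adjusted p = 0.00299, edgeR). The Tnfrsf18 ratio missed the threshold when replicate 1 of URE het Tet2 het was left out (1.66, adjusted p = 0.0921, edgeR). This enhancer row held more counts than its gene row (138 per 100). The gene overlaps the transcript Gm16008, itself higher by 2.65 (adjusted p = 0.00958), and their reads cannot be told apart. The row of its neighbour Tnfrsf4 (OX40), also a member, differed by 0.11 ± 0.38 (adjusted p = 0.905, edgeR).

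Sbds, a ribosome maturation factor, had 4.07 to 6.03 CPM in AML and 1.73 to 3.90 CPM in Normal libraries and rose by 0.85 ± 0.22 (adjusted p = 0.0297, edgeR), a call lost in 9 of 27 alternatives. Its gene row differed by 0.29 ± 0.14 (adjusted p = 0.237, edgeR). Fut4, the fucosyltransferase that makes the CD15 antigen, had 0.746 and 0.397 CPM in URE het Tet2 het, 0.247, 1.26 and 3.23 CPM in URE het Tet2 KO, and 0 to 0.376 CPM in Normal libraries. It rose by 3.44 ± 0.68 (adjusted p = 0.00672, edgeR), with a gene row at 0.59 ± 0.24 that did not pass (adjusted p = 0.16, edgeR). Mrpl22, a protein of the mitochondrial ribosome, rose by 1.41 ± 0.28 without overlap (0.945 to 2.40 CPM against 0.216 to 0.896 CPM), with its gene row at 0.07 ± 0.23. Gstp2, a glutathione transferase, rose by 1.77 ± 0.38 with a gene row at -0.49 ± 0.18, but near-identical Gstp1 makes its counts less certain. Slc25a39, a mitochondrial carrier of glutathione, rose by 2.29 ± 0.52, of which URE het Tet2 het replicate 2 held most at 10.5 CPM. Without that library the change was 1.09 (adjusted p = 0.24, edgeR), and without replicate 2 of URE het Tet2 KO it was 2.05 (adjusted p = 0.0522, edgeR). The Gstp2 row was at 1.65 without replicate 1 of URE het Tet2 het (adjusted p = 0.077, edgeR). Fut4, Mrpl22 and Gstp2 were named after their values were seen.

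The ratio of the enhancer row to its gene row was tested for 1454 members in a fit over 17001 pairs, with the gene count as an offset. In AML against Normal 26 members passed (1.79%), 25 higher and 1 lower, against 1.80% of all pairs (1.63% higher, 0.171% lower). The share among members was that of the background. Of the 26, 11 also passed as enhancer rows, 10 of them higher in both measures, and 7 had a gene row that was lower and passed. In the 10 called higher in both measures the gene row did not pass, and in the 7 with a called lower gene row the enhancer row did not pass.

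Mcpt8, the basophil protease gene at chr14:56082166-56085273, was the list member whose enhancer row rose. Its enhancer row stood at 57.5 and 37.7 CPM in URE het Tet2 het and at 13.3, 61.5 and 84.4 CPM in URE het Tet2 KO. Normal libraries ranged from 5.89 to 23.5 CPM (median 10.9), so 4 of 5 AML libraries lay above them all. The gene row lay the other way, at 16.6 to 32.4 CPM in AML and 17.7 to 49.5 CPM in Normal. The enhancer row rose by 2.13 ± 0.34 (adjusted p = 0.00212), while the gene row, at -0.70 ± 0.25, did not pass (adjusted p = 0.112, edgeR). The ratio was 2.68 ± 0.38 higher (adjusted p = 0.000253, edgeR), and r over the 17 libraries was -0.45. Both calls held in every alternative that could test them. Titles 1 to 7 alone could not, and the enhancer row was higher by 1.94 there and by 1.94 within titles 8 to 17. Ctsg, the cathepsin G gene of neutrophil granules that lies 14.6 kb away, rose by 0.97 (adjusted p = 0.034, edgeR). The summed level of the mast cell, basophil and eosinophil list was lower in AML, as given above, and its part here was not tested.

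H2-DMa, which loads peptides onto MHC class II, had an enhancer row of 0.908 and 1.46 CPM in URE het Tet2 het and of 1.60, 1.18 and 1.09 CPM in URE het Tet2 KO. Normal libraries had 0.296 to 1.12 CPM. The gene row was at 3.89 to 11.6 CPM in AML, below all 12 Normal libraries (14.6 to 29.7 CPM). It fell by 1.68 (SE 0.27, adjusted p = 0.00205), whereas the enhancer row, at 0.96 ± 0.32, did not pass (adjusted p = 0.0835, edgeR). Their ratio was higher by 2.76 ± 0.37 (adjusted p = 0.000128, edgeR) and held in every alternative that was run. So of 2 class II members, H2-Aa fell in both rows and H2-DMa in the gene row alone. The annotated span of H2-DMa overlaps Brd2, whose gene row differed by -0.08 (adjusted p = 0.892, edgeR).

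Cd79a and Tnfrsf13c had gene rows that fell and enhancer rows that did not pass. Cd79a, a signalling chain of the B cell receptor, had a gene row at 0.285 ± 0.17 CPM (SD, n = 5) in AML and 0.961 ± 0.708 CPM (SD, n = 12) in Normal libraries, and fell by 1.41 (SE 0.41, adjusted p = 0.0481, edgeR). Its enhancer row had 0.843 to 3.24 CPM in AML and 0.341 to 1.89 CPM in Normal libraries (0.58 ± 0.38, adjusted p = 0.407, edgeR), and the ratio was 2.10 ± 0.45 higher (adjusted p = 0.00971, edgeR). The Cd79a ratio was at 1.17 without replicate 2 of URE het Tet2 het (adjusted p = 0.335) and at 1.86 without replicate 2 of URE het Tet2 KO (adjusted p = 0.0554, edgeR). The Cd79a call was also lost with limma on the log2 ratio and with 10 added to the gene count in the offset. Tnfrsf13c, the receptor for the B cell survival factor BAFF, had a gene row at -2.95 ± 0.78, at 0 to 2.05 CPM against 0.722 to 11.1 CPM, and an enhancer row at 0.29 ± 0.44. Its ratio was 4.80 ± 0.65 higher (adjusted p = 0.000152, edgeR) and missed the threshold when replicate 1 of URE het Tet2 het was left out (adjusted p = 0.0665). Cells with lymphoid surface markers had been removed by the sort, and the B lymphoid sums above were lower in AML. Their part in these ratios was not tested.

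Other ratios rose beside gene rows with estimates below 0. Drc7, a subunit of the motile cilium's dynein regulatory complex, had an enhancer row of 2.69 to 7.39 CPM in AML and 2.42 to 4.59 CPM in Normal libraries. Its gene row was at 0.181 to 0.781 CPM in 4 AML libraries, at 4.55 CPM in replicate 2 of URE het Tet2 het, and at 1.5 to 4.81 CPM in Normal. The Drc7 ratio rose by 2.53 ± 0.36 (adjusted p = 0.000186, edgeR). The ratios of Apol7b (3.48 ± 0.53), Slc22a20 (3.22 ± 0.51) and Rogdi (2.15 ± 0.34) rose too. The Apol7b gene row passed (-3.06, adjusted p = 0.0379, edgeR), and those of Slc22a20 (-1.37) and Rogdi (-1.04) did not, with Rogdi's gene row at 2.11 and 32.8 CPM in replicates 1 and 2 of URE het Tet2 het. Thsd1, an endothelial membrane protein, rose by 2.86 ± 0.43 with a gene row at -1.82 ± 0.46, and Pgp, a phosphoglycolate phosphatase, by 1.86 ± 0.30 with a gene row at -0.73 ± 0.21. The Pgp enhancer row was itself 0.98 ± 0.29 higher and just missed the threshold (adjusted p = 0.0513, edgeR), and that of Thsd1 was at 0.23 ± 0.33. Leaving out URE het Tet2 het replicate 1 ended the ratio calls of Apol7b (1.42), Rogdi (0.97), Thsd1 (1.31) and Pgp (1.09). Limma on the log2 ratio did not call Slc22a20, Apol7b or Rogdi. The Apol7b call was also lost with 10 added to the gene count in the offset. Over 21 alternatives the Apol7b ratio ran from 0.84 to 4.06. The single lower ratio was that of Hyls1, a centriole protein, at -1.68 ± 0.43 (adjusted p = 0.0403, edgeR, lost in 12 of 21 alternatives), with an enhancer row of 0.324 to 1.03 CPM in AML and 0.586 to 2.86 CPM in Normal libraries. Hyls1 overlaps Pate2 in the annotation, so its counts are less certain. Cd79a, Tnfrsf13c, H2-DMa, Thsd1 and Pgp were named after their values were seen.

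**Figure D5:**
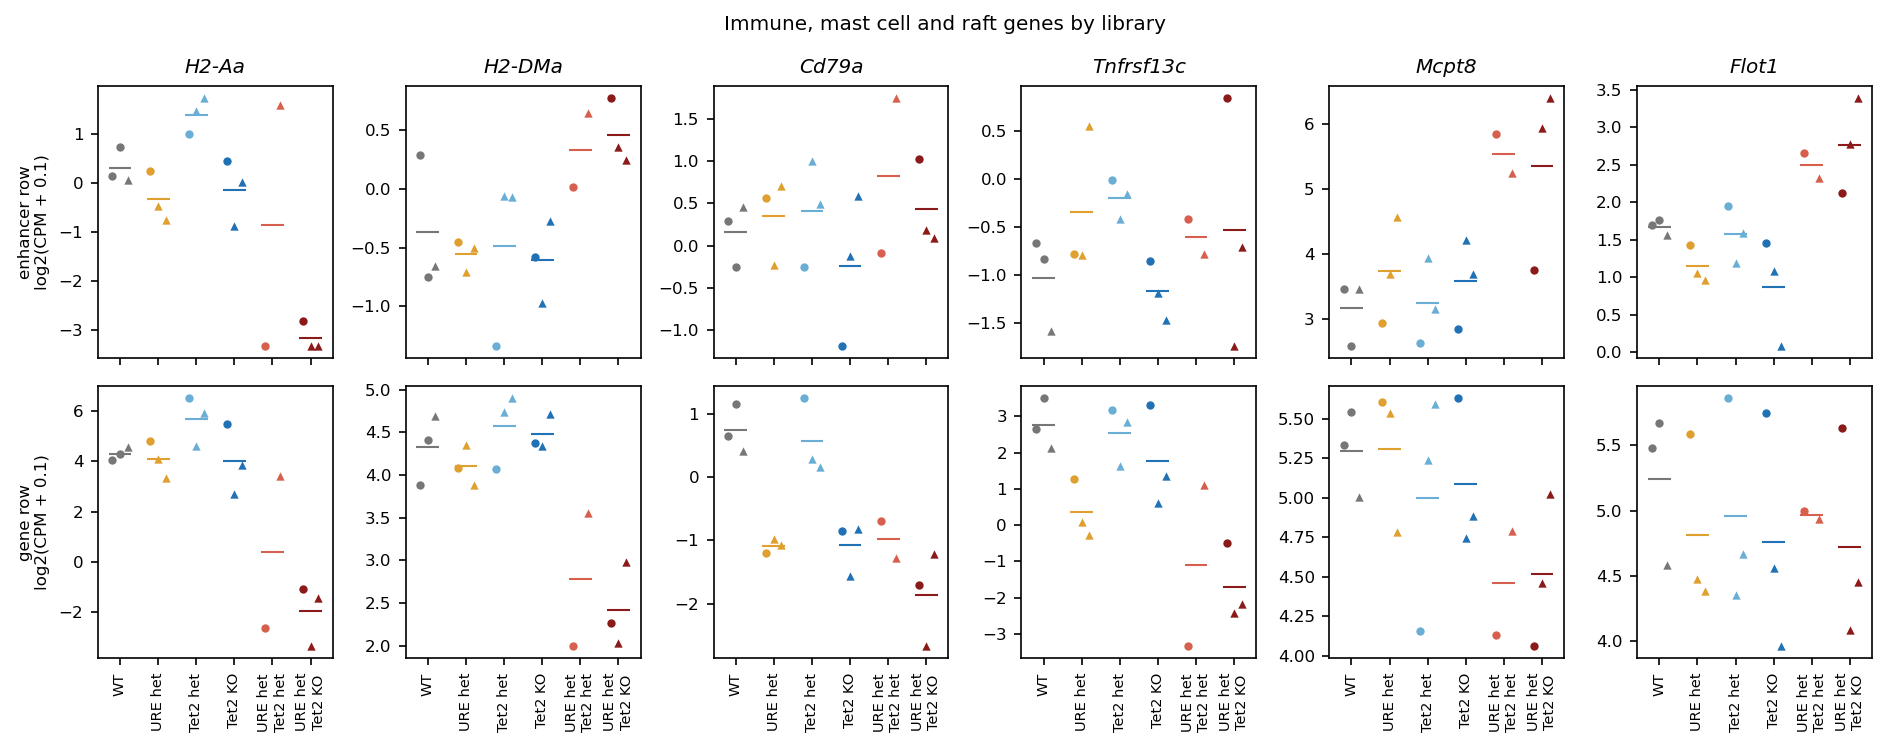
Points give log2(CPM + 0.1) of the enhancer row (top) and gene row (bottom) of 6 members in each of 17 libraries by genotype, with lines for genotype means, circles for title numbers 1 to 7 and triangles for 8 to 17. The H2-DMa gene row is low in all 5 AML libraries and the H2-Aa gene row in 4 of 5, while the H2-DMa enhancer row is not. The Flot1 enhancer row lies above all Normal libraries in all 5 AML libraries and that of Mcpt8 in 4 of 5, while their gene rows do not.

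The 36 members on the lists had 3 called enhancer rows (8.33%), 1 higher (Mcpt8) and 2 lower (H2-Aa and B2m), against 3.90% of all members and 6.56% of all rows. They had 7 called gene rows (19.4%), against 9.02% of all gene rows. No stem cell, T and NK cell, megakaryocyte or stromal gene was a member. Of 3 granulocyte members (Cebpe, Igsf6, Ngp) none passed in either row. Of 2 monocyte members, Lyz2, lysozyme, had an enhancer row at -1.60 ± 0.50 (adjusted p = 0.0674) and a gene row that fell by 1.56 (adjusted p = 0.0123, edgeR), and Id2 passed in neither. Of 8 chromatin and DNA methylation members no enhancer row passed, among them Tet3, a relative of Tet2 (-0.99 ± 0.46, adjusted p = 0.222, edgeR), and Dnmt3b and Dot1l. Ezh1, an H3K27 methyltransferase, had a gene row 0.59 higher (adjusted p = 0.0284, edgeR). Of 3 cell cycle members (Ccna2, Ccne1, Cdkn1a) only the gene row of Ccna2, cyclin A2, passed, at -0.81 (adjusted p = 0.0322, edgeR). Of 3 interferon and inflammation members none passed, with Tyk2, a JAK kinase, at 0.89 ± 0.30 (adjusted p = 0.0885, edgeR). The signalling members Akt1, Inpp5d, Lyn and Ptpn6, the erythroid members Alas2 and Car9, and Junb and Ncf4 passed in neither row.

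By gene family, 0 of 32 zinc finger (Zfp) members and 0 of 30 miRNA members passed in AML against Normal, in a fit that called 3.90% of members. One of 28 solute carriers (Slc25a39), 2 of 22 Tmem members, 1 of 8 cytosolic ribosomal protein members (Rpl3l, by 3.0 ± 0.68) and 1 of 8 mitochondrial ribosomal protein members (Mrpl22) passed, all higher. None of 7 histone members passed. For a gene name that shares a stem this is a count, read against the share over all members.

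Within the genotypes, no member's enhancer row passed in any of 7 comparisons (edgeR). For URE het, Tet2 het and Tet2 KO against WT the share of all rows called was 0%, and 84, 94 and 55 members had an unadjusted p under 0.05. DESeq2 and limma voom each called 0, 0 and 1. These comparisons share the WT libraries. Tet2 het against WT had a median member change of 0.29 and Tet2 KO against WT of -0.08, against 0.19 and -0.04 for all rows. The rows of Mcpt8 (9.21 ± 2.87 CPM in WT, 14.6 ± 8.15 in URE het, 10.03 ± 4.68 in Tet2 het and 12.8 ± 5.74 in Tet2 KO, SD, n = 3 each) overlapped among all 4 Normal genotypes. H2-Aa was highest in Tet2 het, at 2.57 ± 0.656 CPM against 1.16 ± 0.333 in WT (SD, n = 3 each), a difference that did not pass (1.15 ± 0.89, adjusted p = 0.903, edgeR).

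Adding the URE deletion to Tet2 KO called 0.402% of all rows and no member, with 140 members at an unadjusted p under 0.05 and a smallest adjusted p of 0.0506, that of Flot1 (1.93 ± 0.41). DESeq2 called 36 and limma voom with quality weights 160. Adding Tet2 KO to the URE deletion called 0.165% of all rows and no member (138 unadjusted, 19 by DESeq2, 88 by voom). The URE het Tet2 het group against Tet2 het and against URE het called 0% of all rows and no member, with 119 and 171 unadjusted and 8 and 7 by DESeq2. Pairs of these comparisons share the same compound libraries. Mt1 had changes of 4.65 ± 1.12 in URE het Tet2 KO against Tet2 KO (adjusted p = 0.073) and of 5.02 ± 1.15 against URE het (adjusted p = 0.08), and Tnfrsf18 of 2.56 ± 0.65 (adjusted p = 0.0856) and 2.52 ± 0.65 (adjusted p = 0.103, edgeR).

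In the ratio, URE het Tet2 KO against Tet2 KO called 2 members, where 0.0765% of all pairs passed, 0.0647% higher. They were Drc7, at 3.76 ± 0.63 (adjusted p = 0.0181), and H2-DMa, at 3.32 ± 0.63 (adjusted p = 0.0343, edgeR). The H2-DMa gene row averaged 5.48 ± 2.01 CPM in URE het Tet2 KO and 22.3 ± 3.29 CPM in Tet2 KO (SD, n = 3 each), a change of -2.02 (adjusted p = 0.0376), and the enhancer row at 1.29 ± 0.275 and 0.568 ± 0.16 CPM. The Drc7 gene row was at 0.388 ± 0.341 and 3.14 ± 1.11 CPM, a change of -3.05 that did not pass (adjusted p = 0.0585), and its enhancer row at 3.88 ± 1.32 and 2.84 ± 0.385 CPM. With limma on the log2 ratio neither passed. In the other 6 comparisons no member's ratio passed by edgeR or by limma, with 44 to 154 members at an unadjusted p under 0.05, and the share of all pairs was 0.0647% in URE het Tet2 KO against URE het, 0.0235% in URE het Tet2 het against URE het and 0% in the other 4.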

How the data were processed

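Polyadenylated RNA of 17 libraries in 6 genotype groups was used, from 1 table of raw counts deposited by the authors. Reads were aligned with STAR to GRCm38, per the submitters' processing notes; the counting tool, annotation release, strand setting and the origin of the enhancer rows are not given in the sources used here. Identifiers were matched to GENCODE vM21 of GRCm38 (47224 of 47643 gene rows), and the release behind the deposited table may differ.

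Rows with 10 or more counts in at least 3 libraries (40587) entered a robust edgeR 4.0.16 quasi-likelihood fit in R 4.3.3 with 1 mean per genotype, library size and TMM scaling from gene rows. P-values are two-sided, adjusted by Benjamini-Hochberg over all rows in each of 8 comparisons, at 0.05. The ratio test used edgeR on enhancer counts with the log of the gene count plus 1 as offset, over 17001 pairs with a mean gene count of at least 20. Library depth was 21.1 to 38.3 M gene counts. Both tests were also run on simulated counts with a common spread for all rows and equal changes in all AML libraries. That setting cannot speak for calls that hinge on single libraries or on gene rows near 0. Alternatives used DESeq2 1.42.0, limma 3.58.1, other scalings and filters, the title range and leaving out each library. For the ratio, 10 in place of 1 was also added to the gene count.

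Members and lists were chosen with earlier results of these data known. Members named by rule were: the 10 largest rises and falls in AML against Normal at 1 CPM or more without overlap between libraries, up to 3 called members of each list, the 6 largest rises and falls of the ratio, 3 each way in other comparisons, the 5 highest levels, and the 3 highest and lowest r. Predicted and clone-named genes were left out. Others are said to be named after their values were seen.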

Additional observations from a re-analysis of the deposited data

Results flagged for a closer look

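In groups of 5 AML libraries, 9 of 56 enhancer rows tested had 1 library set apart from the rest by more than the 95% limit for a gap over the range (0.71). Chance flags about 1 in 20 groups chosen without regard to their values, but these rows share the same 5 libraries and many were named after their values were seen (Snrnp70, Irf7, Hnrnph1 and Eef1g among them), so the tally is not set against chance. URE het Tet2 het replicate 2 held 7 of these. Its enhancer-row levels were 47.7 CPM for Snrnp70, 26.4 CPM for Irf7, 63.8 CPM for Hnrnph1, 10.5 CPM for Slc25a39, 30.3 CPM for Eef1g, 2.90 CPM for H2-Aa and 0.0209 CPM for Krt80, each the highest of the 5. The Krt80 value is a single count, where the other 4 libraries had none. URE het Tet2 KO replicate 3 had the highest level of Mt1 at 17.9 CPM, and URE het Tet2 KO replicate 1 that of Fpr1 at 0.575 CPM. URE het Tet2 het replicate 2 was also the library with the highest share of counts in these enhancer rows (0.585%), and the part of that share in these values was not tested.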

How the results depend on the processing

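For AML against Normal, 67 enhancer rows passed. DESeq2 called 133 and voom 58. A title range term gave 135, titles 8 to 17 alone (chosen after seeing the data) gave 158, and leaving out 1 library gave 20 to 116. The ratio called 26 members, and 10 by limma, 13 with a gene mean of at least 200, 47 with the title range term, 64 in titles 8 to 17 alone and 10 to 34 with 1 library left out. In titles 8 to 17 alone, URE het against WT gave 9 enhancer rows and 17 ratios, and Tet2 het against WT gave 1 ratio. Tet2 KO against WT gave 1 row each with no filter, DESeq2 and voom. URE het Tet2 KO against Tet2 KO gave 21 rows with no filter, 36 by DESeq2, 160 by voom, 4 with the title range term, 104 in titles 8 to 17 alone and 0 to 35 with 1 library left out. Its ratios gave 0 by limma, 1 with a gene mean of at least 200, 5 with the term, 31 in titles 8 to 17 alone and 0 to 7 with 1 library left out. URE het Tet2 KO against URE het gave 22, 19, 88, 3 and 112 rows under those 5 settings and 0 to 35 with 1 library left out, and ratios of 4 with the term, 36 in titles 8 to 17 alone and 0 to 4. URE het Tet2 het against Tet2 het gave 6 rows with no filter, 8 by DESeq2, 13 in titles 8 to 17 alone and 0 to 14 with 1 library left out, and ratios of 1 with the term, 7 in titles 8 to 17 alone and 0 to 9. URE het Tet2 het against URE het gave 4 rows with no filter, 7 by DESeq2, 69 in titles 8 to 17 alone and 0 to 10 with 1 library left out, and ratios of 3 with the term, 60 in titles 8 to 17 alone and 0 to 5. The causes were not tested. Of 32 named enhancer-row calls 9 held under every alternative and 21 were lost without URE het Tet2 het replicate 1. Of 19 named ratio calls 4 held under every alternative, and 0 of these named results reversed. Titles 1 to 7 alone counted among the enhancer-row alternatives, with 1 library in each genotype but WT, so that setting shows direction only. No paired analysis was made, since the labels name no pairs of libraries. Members had a median of 29.4 counts per library, which limits the precision of single values.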
